A study of Oryctolagus cuniculus with 4 samples.

Results

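The SWI/SNF complex and its alternative ATPase SMARCA2 were examined in rabbit blastocysts that developed from unfertilised eggs. The members were fixed as a list of 9 genes: the ATPases SMARCA2 and SMARCA4, the core subunits SMARCB1, SMARCC1, SMARCC2, SMARCD1 and SMARCE1, and the subunits ARID1A and PBRM1. SMARCA2 was put on the list because its signal was higher in parthenotes in these same arrays, so its values are given as a description and without a test. Probes were found by gene name, by accession or by the gene in the array's description. They were found for 5 of the 9 genes, as 11 of the 43603 probes on the array. SMARCA4, SMARCB1, SMARCD1 and ARID1A were not analysed here, so the question of whether SMARCA4 changed with SMARCA2 has no measurement.

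The data are 4 two-colour Agilent arrays of New Zealand White rabbit blastocysts recovered at day 6. On each array a pool of parthenotes was labelled with Cy3 and a pool of embryos fertilised in vivo with Cy5, which gives 4 pools of each kind. Parthenotes came from eggs activated by electrical pulses followed by cycloheximide and 6-DMAP, and were then transferred to the oviducts of recipient does. The fertilised embryos were flushed from inseminated does. Each pool held several embryos, so differences between single embryos were not measured. The dyes were not swapped, so dye and group cannot be told apart for any single probe. In whole blastocysts a lower signal from fewer cells of a type and from less RNA per cell cannot be told apart either.

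SWI/SNF complexes use the energy of ATP to slide or evict nucleosomes and so open DNA to transcription factors. Each complex holds a single catalytic ATPase, either SMARCA4 (also called BRG1) or its close relative SMARCA2 (also called BRM). SMARCC1, SMARCC2 and SMARCE1 belong to the shared body of the complex, whereas PBRM1, a protein with several bromodomains, marks the form named PBAF. In mice, embryos without SMARCA4 die around implantation, whereas animals without SMARCA2 are viable.

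The 60-base probes are shown because each gene's value rests on a single stretch of its transcript. The 5 SMARCA2 probes are the same stretch shifted by 1 base at a time, and the 56 bases common to all of them are in capitals:
SMARCA2 A_04_P095517: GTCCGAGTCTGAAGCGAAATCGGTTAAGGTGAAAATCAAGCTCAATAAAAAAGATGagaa
SMARCA2 A_04_P095520: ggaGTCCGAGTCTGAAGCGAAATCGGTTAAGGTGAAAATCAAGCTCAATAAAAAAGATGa
SMARCA2 A_04_P095521: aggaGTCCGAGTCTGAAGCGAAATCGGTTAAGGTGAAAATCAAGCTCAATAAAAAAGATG
The first and the last of the series and the brightest, A_04_P095520, are printed. The array file places the brightest on the minus strand of chromosome 1, at chr1:52324885-52327728, without naming a genome build. This span is 2784 bases longer than the probe, so the placed sequence is split over more than 1 block of the genome. The 3 PBRM1 probes share 58 bases in the same way (in capitals), and the brightest is placed at chr9:19610086-19610144 on the minus strand:
PBRM1 A_04_P086934: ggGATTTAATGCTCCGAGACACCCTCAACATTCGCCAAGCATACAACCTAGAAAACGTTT
SMARCC1, SMARCC2 and SMARCE1 have 1 probe each:
SMARCC1 A_04_P080817: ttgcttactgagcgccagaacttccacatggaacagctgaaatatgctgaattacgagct
SMARCC2 A_04_P076322: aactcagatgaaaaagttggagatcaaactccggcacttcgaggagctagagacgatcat
SMARCE1 A_04_P075237: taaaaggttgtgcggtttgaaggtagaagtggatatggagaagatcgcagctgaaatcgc
They are placed at chr9:15535923-15535982, chr4:39732532-39732591 and chr19:41735729-41736777, all on the minus strand. The annotation of exons and untranslated regions at these positions was not used here. The gene identifier of the SMARCC1 probe is that of SMARCC1, but the array's description names it as the paralog SMARCC2. The SMARCC2 probe was named from its description alone. The longest run of bases that these paralog probes share is 5. No probe of another gene shared a run of 20 or more bases with any of the 11 member probes on either strand. The array lists 2 transcripts for each SMARCA2 probe, 3 for each PBRM1 probe and 2 for the SMARCE1 probe, and which of them was measured is uncertain.

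The processed signal of a channel is its fluorescence, in arbitrary units, after background subtraction and dye normalisation. The brightest SMARCA2 probe had parthenote signals of 1136, 1171, 661 and 859 on arrays 1 to 4. Its fertilised signals on the same arrays were 173, 165, 133 and 116. The groups did not overlap, and each channel on each of the 4 arrays was well above background. The log2 ratios of parthenote over fertilised were 2.72, 2.83, 2.32 and 2.89, with a mean of 2.69 ± 0.26 (SD, n = 4), a 6.44-fold higher signal. The other SMARCA2 probes had mean log2 ratios from 2.55 to 2.72. Because they differ by single-base shifts, the 5 probes are close to 1 measurement repeated and are no independent evidence of each other. The value of the brightest probe lay at percentile 99.4 of all probes tested. The size depended on the processing. Normexp subtracts the local background and then fits a model to what remains. With normexp in place of the deposited ratio, the mean was 2.01 when followed by loess and 1.60 when followed by median centring. Background correction, offset and normalisation all differ from the deposited ratio in these settings, and their parts were not separated.

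**Figure D1:**
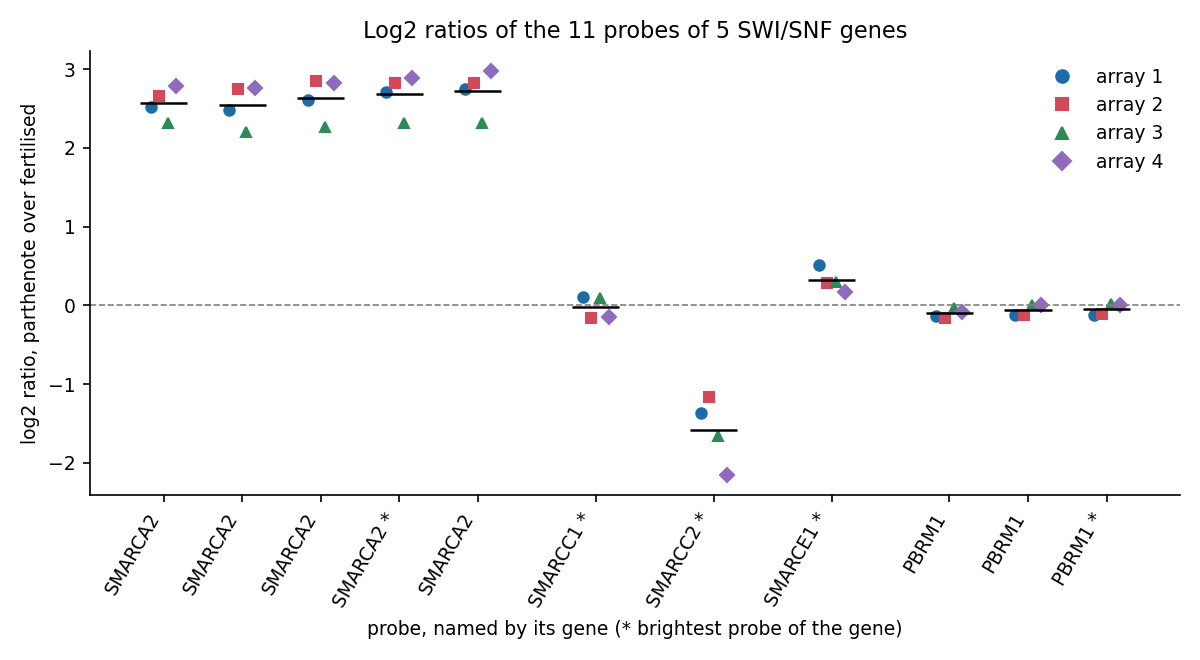
Log2 ratio of parthenote over fertilised (y axis) for each of the 11 probes of 5 genes (x axis, * for the brightest probe of a gene). Symbols are the 4 arrays and black lines their means. All SMARCA2 points lie above 2.2, SMARCC2 lies below -1.1 on every array, and the SMARCC1 and PBRM1 points lie within 0.16 of 0.

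The 3 core subunits with a probe were SMARCC1, SMARCC2 and SMARCE1. SMARCC1, a scaffold protein of the complex, had parthenote signals of 389, 345, 381 and 320 on arrays 1 to 4. Its fertilised signals were 362, 384, 356 and 354. The groups overlapped, with the parthenote pool higher on arrays 1 and 3 and lower on arrays 2 and 4. The mean log2 ratio was -0.02 ± 0.14 (SD, n = 4; 95% interval -0.22 to 0.17; limma, adjusted p = 0.924).

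SMARCC2, the paralog of SMARCC1 in the same scaffold, was dim. Its parthenote signals were 29.9, 30.7, 23.8 and 15.5, and its fertilised signals 77.2, 69.0, 75.0 and 69.1. The groups did not overlap. The parthenote channel was well above background on 3 of 4 arrays and the fertilised channel on 4 of 4. The mean log2 ratio was -1.59 ± 0.43 (SD, n = 4), a 3.01-fold lower signal in parthenotes, which passed the test over all probes (limma, adjusted p = 0.0237). The call was lost when any one of the 4 arrays was left out, with limma adjusted p-values from 0.0676 to 0.0997. Under normexp correction the mean was -0.50 after loess and -0.53 after median centring, both past the threshold.

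SMARCE1, a subunit with a DNA-binding HMG domain, had parthenote signals of 1820, 1754, 1765 and 1626. Its fertilised signals were 1275, 1439, 1437 and 1442. The parthenote pool was higher on all 4 arrays and the groups did not overlap. The mean log2 ratio was 0.32 ± 0.14 (SD, n = 4; 95% interval 0.12 to 0.51), and it did not pass the test (limma, adjusted p = 0.0558). With the channels taken as separate samples rather than pairs, the adjusted p in limma was 0.0178, and over the alternatives it ranged from 0.00713 to 0.174. The ratio turned to -0.29 under normexp correction with median centring.

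PBRM1 of the PBAF form was close to equal in both groups. Its brightest probe had parthenote signals of 794, 764, 876 and 751 and fertilised signals of 860, 821, 862 and 745. The groups overlapped. The mean log2 ratio was -0.05 ± 0.07 (SD, n = 4; 95% interval -0.15 to 0.05; limma, adjusted p = 0.435). The other PBRM1 probes gave -0.10 and -0.06.

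**Figure D2:**
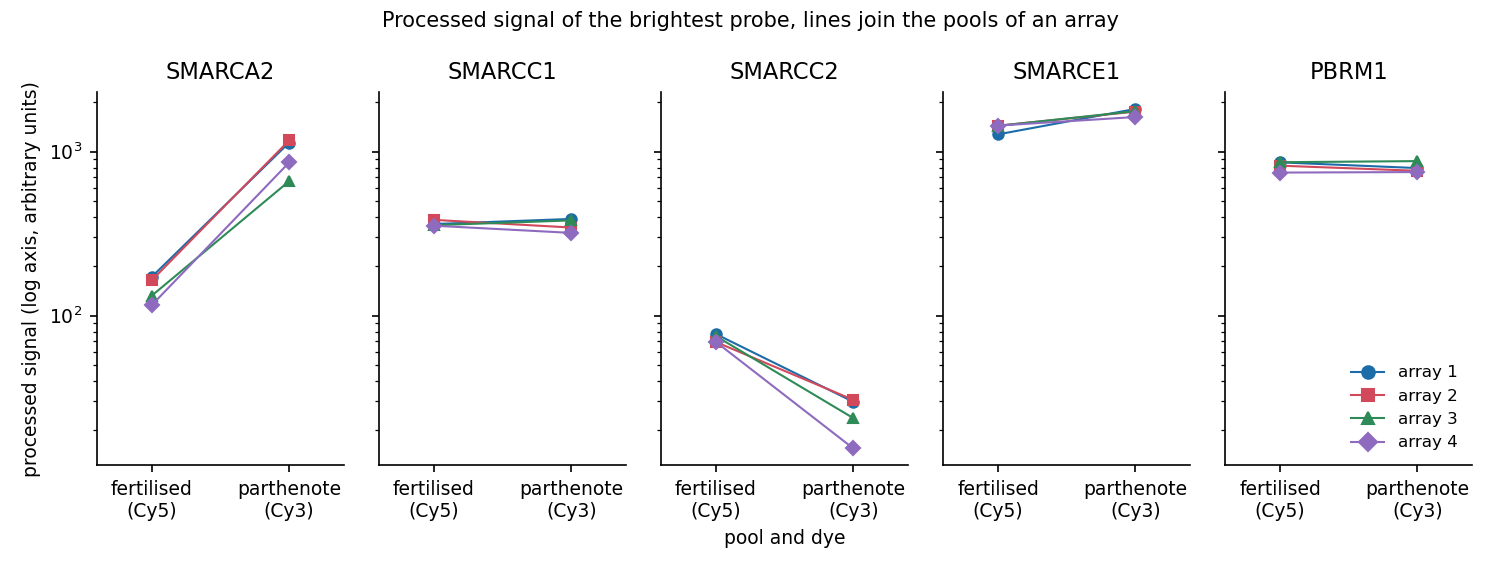
Processed signal (y axis, log scale, arbitrary units) of the brightest probe of each of the 5 genes in the fertilised (Cy5) and parthenote (Cy3) pools (x axis). Lines join the pools of an array. SMARCA2 climbs on all 4 arrays, SMARCC2 drops at low signal, and SMARCC1 and PBRM1 stay nearly level. Heights of different probes are not comparable.

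Among the 4 members other than SMARCA2 with a probe, limma called 0 higher and 1 lower in parthenotes. At an unadjusted p under 0.05 the counts were 1 and 1, and with the methods' t-test after adjustment 0 and 1. Of all 43595 probes tested, limma called 20.6%, with 9.53% higher and 11.1% lower. Without adjustment 15940 passed, and the methods' t-test called 4435. Among the 9763 named genes, each by its brightest probe, 24.1% were called, 11.8% higher and 12.3% lower. These shares include dim probes. In a fit on the 26661 probes well above background on all 4 arrays in at least 1 channel, limma called 11304. With so few members, the count was not read against this background. The median log2 ratio of the 4 genes was -0.04, and that of all probes was 0.

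Of the other SWI/SNF subunits, 14 of the 22 listed had a probe. Limma called 0 of them higher and 3 lower, namely ACTB, BICRAL and ACTL6B, and 11 did not pass. At an unadjusted p under 0.05 the counts were 1 higher and 4 lower, and with the methods' t-test after adjustment 0 and 2. Of all named genes, limma called 11.8% higher and 12.3% lower. These shares cover dim genes, whereas 12 of the 14 subunits were well above background on all arrays in both groups. With dim probes left out of the fit, 0 subunits were called higher and 3 lower, where 11304 of 26661 probes were called. Of all 43595 probes, 15940 passed without adjustment and 4435 with the methods' t-test. The median log2 ratio of the 14 was -0.03.

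Some of these subunits were dim. ACTL6B, the actin-related subunit of the neuronal complex, was not well above background in either group on any array, so its call carries no level and no fold is given. DPF3, a reader of histone tails found in muscle and neuronal complexes, was likewise not above background on any array. BICRAL, which belongs to the non-canonical form ncBAF, had parthenote signals of 21.2, 18.5, 19.0 and 19.3 and fertilised signals of 26.7, 26.9, 26.0 and 23.5. Its mean log2 ratio was -0.40 ± 0.12 (SD, n = 4; limma, adjusted p = 0.0271). The call was lost under each omission of an array (limma, adjusted p from 0.0735 to 0.108), and the mean was -0.02 under normexp with loess.

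ACTB, the β-actin that is also a stable part of SWI/SNF, had log2 ratios of -0.17, -0.25, -0.32 and -0.29 at its brightest probe, with a mean of -0.26 ± 0.06 (SD, n = 4; limma, adjusted p = 0.0213). The call was lost without array 2, 3 or 4, with limma adjusted p-values up to 0.106, and the adjusted p was 0.0679 when pools were not paired. Its cytoskeletal pool cannot be separated from that of the complex, and another ACTB probe, A_04_P035462, was itself called higher, at 0.13 (limma, adjusted p = 0.00989). The direction of ACTB thus differed between its probes.

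The remaining measured subunits did not pass the test. In the actin-related module, ACTL6A had a mean log2 ratio of -0.03 (95% interval -0.12 to 0.07). Of the PBAF subunits, the DNA-binding ARID2 was at 0.14 (0.01 to 0.28), the PHD-finger protein PHF10 at 0.10 (-0.08 to 0.29), and the bromodomain protein BRD7 at -0.04 (-0.09 to 0.02). The ncBAF bromodomain protein BRD9 was at 0.01 (-0.31 to 0.33), and DPF2, a histone reader of the BAF form, at -0.12 (-0.32 to 0.08). The core subunit SMARCD2 was at -0.06 (-0.22 to 0.10) and SS18 at 0.14 (-0.05 to 0.33). The small subunits BCL7A and BCL7B were at 0.19 (-0.05 to 0.44) and -0.21 (-0.34 to -0.08), the last with a limma adjusted p of 0.0591.

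**Figure D3:**
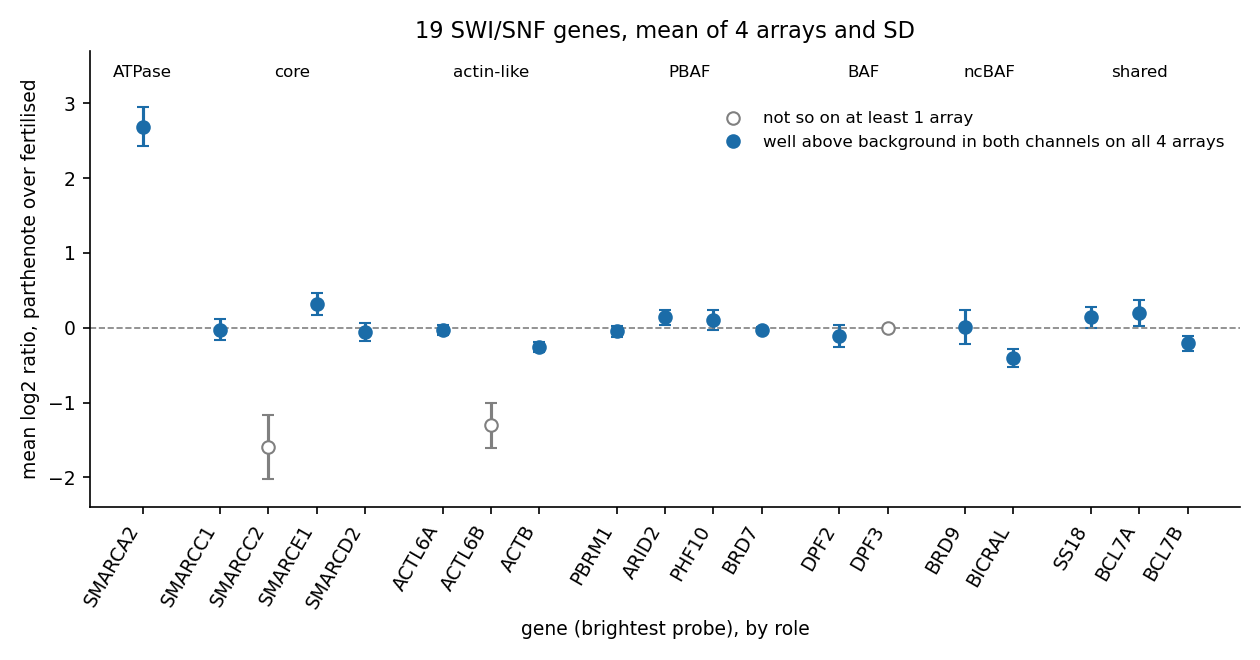
Mean log2 ratio of parthenote over fertilised (y axis) for the brightest probe of 19 SWI/SNF genes grouped by role (x axis). Bars are the SD over 4 arrays, and open symbols mark probes not well above background in both channels on every array. SMARCA2 stands at 2.69, and the other filled points lie between -0.40 and 0.32.

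Other families of ATP-dependent remodellers were read in the same way. So were the genes of PRC2, which is not such a remodeller but is counted among the remodeller genes below. The largest ratio in the lists of ISWI, CHD and NuRD, INO80 and SRCAP, other SNF2 and PRC2 genes belonged to SMARCA1, the catalytic ATPase of an ISWI complex. SMARCA1 had parthenote signals of 355, 299, 326 and 307 and fertilised signals of 180, 147, 168 and 151. The groups did not overlap. Its mean log2 ratio was 1.00 ± 0.03 (SD, n = 4), 1.99-fold, and it passed the test (limma, adjusted p = 0.00361) and passed without each array in turn. Under normexp its mean was 0.66 with loess and 0.32 with median centring, both past the threshold. In the ISWI list limma called 2 of 8 higher and 2 lower. BAZ1A rose by 0.26, whereas RSF1, a histone-binding partner of ISWI, was at -0.35 and BPTF, the large subunit of NURF, at -0.26, both called lower.

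Of the CHD and NuRD genes, 2 of 14 were called higher and 1 lower. RBBP7, a histone chaperone shared with PRC2, was at 0.46, the helicase CHD7 at 0.13 and MTA1, a NuRD scaffold, at -0.36. In the INO80 and SRCAP list, 2 of 13 were called higher and 1 lower, with DMAP1 at 0.31, ZNHIT1 at 0.30 and NFRKB at -0.53. Among 9 other SNF2 genes, HLTF, which acts at stalled replication forks, was called higher at 0.51 and SMARCAD1 lower at -0.31. Of 6 PRC2 genes, PHF1 was called higher at 0.25, with the parthenote channel well above background on 1 of 4 arrays and the fertilised channel on 3. Over these lists together, limma called 8 of 50 genes higher and 5 lower, with a median log2 ratio of -0.00179. Of all named genes, dim ones included, 11.8% were called higher and 12.3% lower. Of the 50, 43 were well above background on all arrays for parthenotes and 45 for fertilised embryos. With dim probes left out of the fit, 9 were called higher and 7 lower, where 11304 of 26661 probes were called. Of the 13 genes called with all probes in the fit, SMARCA1 and RSF1 passed under every omission of an array, and each other was lost under at least 3 of the 4.

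**Figure D4:**
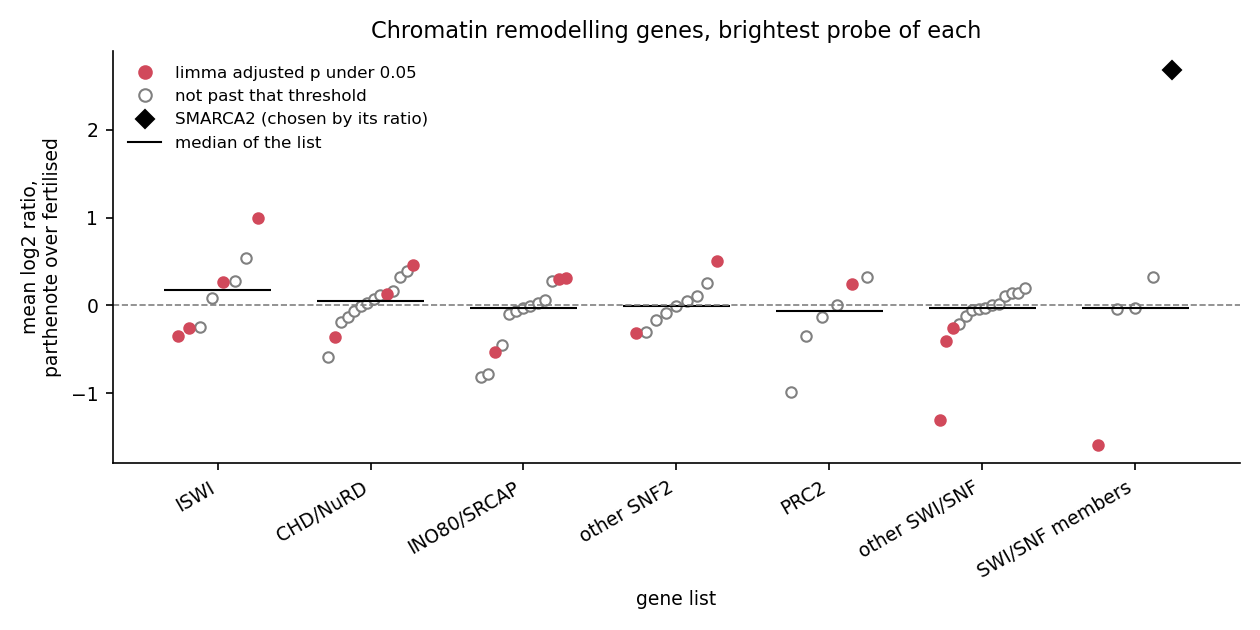
Mean log2 ratio of parthenote over fertilised (y axis) of each gene with a probe in 7 lists of chromatin genes (x axis). Filled red points passed the limma test at an adjusted p under 0.05, open points did not, and lines are list medians. SMARCA2 (black) lies at 2.69 and the next highest gene, SMARCA1, at 1.00. The lowest red point among the other SWI/SNF genes is ACTL6B, which was not above background.

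The chromosomal neighbours of SMARCA2 were read beside it. Within 2 Mb on either side, in the positions of the array file, lay 27 other probes, of which 9 were well above background on every array in each channel. Of 7 flanking genes with a probe, 1 was called higher and 0 lower, where 11.8% of all named genes were called higher and 12.3% lower. At an unadjusted p under 0.05 the counts were 1 and 1, and with the methods' t-test 1 and 0. Of all 43595 probes, 15940 passed without adjustment and 4435 with the methods' t-test. With so few flanking genes, the counts were not read against these shares. DOCK8, a regulator of the GTPase CDC42 that is abundant in leukocytes, lay 1836 kb from SMARCA2. Its parthenote signals were 815, 726, 995 and 814 and its fertilised signals 262, 308, 366 and 278, so that the groups did not overlap. Its mean log2 ratio was 1.47 ± 0.17 (SD, n = 4), 2.77-fold (limma, adjusted p = 0.008). Without array 4 the adjusted p in limma was 0.0572, and under normexp with median centring the mean was 0.71, past the threshold. The nearer genes VLDLR and PUM3, on the other side of SMARCA2, were at 0.17 and -0.10 and did not pass (limma, adjusted p = 0.138 and 0.0589). RFX3 was at 0.93 ± 0.69 and was well above background on 3 arrays for parthenotes and on 2 for fertilised embryos.

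**Figure D5:**
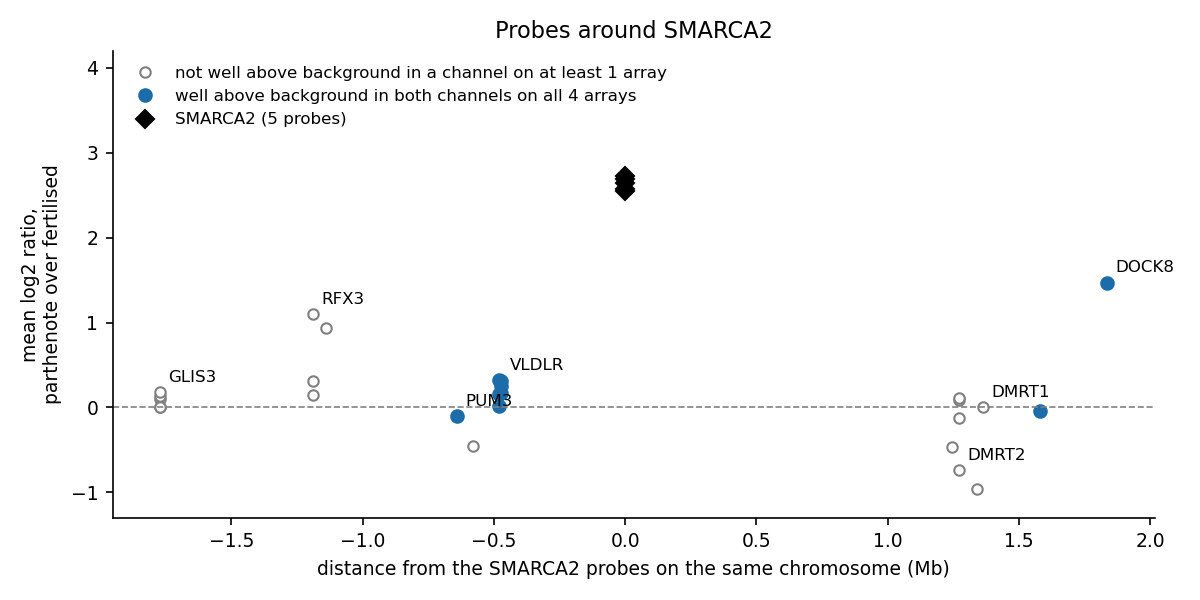
Mean log2 ratio of parthenote over fertilised (y axis) of the probes within 2 Mb of SMARCA2, against their distance from it (x axis, Mb). Filled points exceeded background clearly in each channel of every array. VLDLR and PUM3, the measured genes nearest to SMARCA2, lie near 0, and DOCK8 lies at 1.47.

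The genes most like SMARCA2 were sought by Pearson correlation of log2 processed signals over the 8 channels, among 6719 genes well above background throughout. The channels fall into the study's groups, so the measure mainly ranks genes by how tightly they separate parthenote from fertilised pools. It exceeded 0.9 for 475 genes. The top 5 were LACC1, a metabolic enzyme of macrophages, at 0.998, TERF2IP, a telomere-binding protein, at 0.991, HERPUD2 at 0.989, PPP3CA, the catalytic subunit of calcineurin, at 0.988, and TMOD3, which caps actin filaments, at 0.986. Their mean log2 ratios ran from 0.50 to 0.93. The next gene, AOX1, an aldehyde oxidase named after its value was seen, had a correlation of 0.986 and a mean log2 ratio of 3.01, larger than that of SMARCA2. Of the SWI/SNF genes, SMARCE1 came nearest at 0.887.

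The arrays gave 25805 to 26339 probe spots well above background for parthenotes and 27508 to 27835 for fertilised embryos, of 43803. Ratios of different arrays correlated across probes at 0.67 to 0.81. Of blastocyst markers with a probe, 8 of 9 trophectoderm, 3 of 3 epiblast and 3 of 4 primitive endoderm genes were well above background on all arrays in both groups. POU5F1 was among them, and only 3 of the 12 listed epiblast genes had a probe. Some markers of ciliated, secretory and leukocyte cells were also higher in parthenotes, and several of them were listed with their ratio in these arrays already known. Of all named genes, 11.8% were called higher. Of 10 ciliated-cell genes limma called 6 higher and 0 lower, and their summed signal was 1634 to 4203 in parthenotes and 510 to 671 in fertilised embryos. CFAP144 was at least 3.94-fold and RSPH1 at least 1.37-fold higher, both not well above background in any fertilised pool, so they have no rank among the markers. SPAG6 was at 1.08 at its brightest probe and did not pass (limma, adjusted p = 0.0717), and the mean of all its probes was 3.32 and passed (limma, adjusted p = 0.0207). FOXJ1, the defining regulator, was not above background on any array. Of 7 oviduct and uterus secretory genes 5 were called higher, with sums of 9150 to 30310 against 1164 to 2843. OVGP1, the oviduct-specific glycoprotein, was at 3.87 and PIGR at 2.90, while LCN2 was at -0.57 and ESR1 was not above background. Of 8 leukocyte genes 5 were called higher (sums of 895 to 1064 against 533 to 585), and PTPRC and CD3E were at background. Of 11 stromal genes 1 was called higher, a share near that of all named genes. It was TAGLN, which gave most of the summed signal (3681 to 5091 against 2357 to 3243), and COL1A1, MYH11, ACTA2 and PDGFRB were not above background. The median log2 ratio of the list was 0.38. At an unadjusted p under 0.05, 3 were higher and 0 lower, where 15940 of all 43595 probes passed. COL3A1, well above background on 4 arrays for parthenotes and 2 for fertilised embryos, was at 1.83 and did not pass (limma, adjusted p = 0.13). LUM was at -0.02 and THY1 at -0.19. The markers' part in the SMARCA2 result was not tested.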

How the data were processed

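RNA of 4 parthenote (Cy3) and 4 fertilised (Cy5) pools was hybridised on 4 arrays. The authors extracted spots with Agilent Feature Extraction 10.10.1.1, named in the submitters' processing notes. The deposited files hold raw mean and background intensities, and a processed intensity after background subtraction and dye normalisation. The log10 ratio that the authors deposited is Cy5 over Cy3. It is exactly 0 for some probes dim in both channels, such as DPF3, whereas others, such as ACTL6B, keep a ratio other than 0. The deposited value table, also a log10 ratio, repeats it with the opposite sign.

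Ratios were turned here to log2 of parthenote over fertilised. Controls were dropped, outlier spots (26 to 48 an array) were treated as missing, and replicate spots were averaged. The test was limma 3.58.1 (R 4.3.3; lmFit and eBayes, two-sided, mean against 0) on the 43595 probes measured on 3 or more arrays, with Benjamini-Hochberg adjustment and a threshold of 0.05. Figures used matplotlib 3.10.9 in Python 3.11.15. The labels call the pools biological replicates, and per the methods the pools of a group were independent of each other and held several embryos each.

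Each ratio pairs the pools of an array. Deviations from the group means correlated at 0.39 to 0.48 within an array and -0.19 to -0.10 between arrays. Subtracting the group means pushes the values between arrays below those of unrelated pools by construction. On simulated data with 50 changed probes a fold, limma recovered 17 changed 1.5-fold, 31 changed 2-fold and 37 changed 5-fold. In the same simulation 13 calls were false. Precision is limited by the number of arrays.

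A symbol was found for 21926 probes, from accessions, gene identifiers or descriptions. The rabbit gene table (mOryCun1.1) served for names only. A gene with several probes is given by the brightest. The members, the gene lists and the naming rule were chosen with earlier results of these data known, and several ciliated and secretory genes were already known to differ. Named were all SWI/SNF genes, at most 2 called genes each way in other lists, the 5 genes most correlated with SMARCA2, and the 2 highest and lowest ciliated and secretory markers. Other marker lists are given by counts, and VLDLR, PUM3, RFX3, AOX1, TAGLN, COL3A1, LUM and THY1 were added after their values were seen. An "at least" fold sets the bright group against the higher of the dim probe's signal and the dimmest signal well above background, after normexp, loess and Aquantile.

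Alternatives were normexp (offset 50) with loess or median centring, the ratio of processed signals, the value table, a dim-probe filter (clearly above background in 1 channel or more of every array), outlier spots retained, an intensity trend with robust estimation, the methods' t-test, unpaired channels, each array left out and the mean of a gene's probes. Normexp with loess after repair of the local background of spots lying far below it was added after seeing the data.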

Additional observations from a re-analysis of the deposited data

Results flagged for a closer look

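Of 59 sets of 4 values examined, 4 held 1 value far from the other 3, and chance alone flags about 1 in 20 such sets. The fertilised log2 signal of SMARCE1 was 10.32 on array 1, against 10.49 on each of the others. The log2 ratio of SMARCD2 was 0.12 on array 2, against -0.14 to -0.10 elsewhere, and that of VLDLR was -0.0154 on array 2, against 0.21 to 0.24. The log2 ratio of FOXJ1 was 0.43 on array 1 and 0 on the others, with both channels at background throughout.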

How the results depend on the processing

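The value table of the series is the same numbers with the sign turned, so that its identical results say nothing about stability. Retaining outlier spots changed no call among 49 named genes, and 2 of them lost their call with the intensity trend. Values of SMARCA2 ran from 1.60 (normexp, median centring) to 2.81 (without array 3), at 2.01 and 2.36 under normexp with loess before and after background repair.

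Without the replicate block, that is with pools unpaired, 16358 probes were called (68.0% higher, against 46.2% of the paired calls). Among them were 1 member other than SMARCA2 higher (SMARCE1) and 1 other subunit higher (DPF3, not above background on any array). The ratio of processed signals called 21399 probes (65.0% higher), with 1 such member higher, 1 other subunit higher (again DPF3) and 8 other remodeller genes lower. In both, the median of all probes lay at 0.08 rather than 0. The dim-probe filter called 11304 of 26661 probes, with 1 member other than SMARCA2 higher. The methods' t-test called 4435 probes, and 3 other remodeller genes higher and 2 lower. Normexp with loess called 6512 of 43595 probes. It gave 1 member higher, 1 other subunit lower and 5 remodeller genes higher, and turned SMARCC1 to 0.00205 and BRD9 to -0.0315. After background repair it called 13086 of 43595 probes, with 1 member higher and 10 remodeller genes lower.

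Normexp with median centring called 31610 of the 43595 probes. Among them were 4 members other than SMARCA2 lower, 1 other subunit higher (DPF3, at background) and 11 lower, and 3 remodeller genes higher and 30 lower. It turned SMARCE1 (-0.29), ARID2 (-0.46), PHF10 (-0.68), BRD9 (-0.47), SS18 (-0.21), BCL7A (-0.41), BAZ1A (-0.14), RBBP7 (-0.25), CHD7 (-0.40), DMAP1 (-0.43), ZNHIT1 (-0.37), HLTF (-0.0866), VLDLR (-0.19), TERF2IP (-0.0442) and TMOD3 (-0.0842) below 0, and ACTL6B (0.18) and BICRAL (0.0491) above 0. The cause was not tested.

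Leaving out each array in turn gave 1239 (without array 4) to 5736 called probes, 0 members other than SMARCA2 lower, 0 to 1 other subunits lower, 1 to 7 remodeller genes higher and 1 to 3 lower. SMARCC1 ranged from -0.0677 to 0.0185 and BRD9 from -0.0614 to 0.12.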

Other observations

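Near-identical or neighbouring probes of a subunit did not always give the same ratio. The 5 BICRAL probes share 56 bases, and their mean log2 ratios ran from -0.80 to -0.40. Only the brightest was well above background in the parthenote channel on all 4 arrays. The 3 ACTB probes ran from -0.31 to 0.13, the 4 ARID2 probes from -0.03 to 0.14 and the 3 ACTL6A probes from -0.20 to -0.03.

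Near SMARCA2, a second VLDLR probe had a mean log2 ratio of 0.25 (limma, adjusted p = 0.0449) where the brightest one did not pass. An unnamed probe, A_04_P010338, lay 479 kb away at 0.32 (limma, adjusted p = 0.012). Another, A_04_P085532, lay 1341 kb away and was at least 1.17-fold lower in parthenotes, where it was not well above background on any array. These probes were chosen after their values were seen.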
